A study of Sus scrofa with 15 samples.

Results

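The 4 circadian clock genes ARNTL, CRY2, BHLHE40 and NFIL3 were followed in the backfat of 15 castrated male Iberian pigs. They were chosen by name, as every probe set annotated with exactly one of these symbols. Each gene had 1 probe set, so 4 probe sets of the 3255 tested, and 4 of the 1260 genes named among them, are described here. The Iberian is a local pig breed that lays down much fat, and the tissue was the inner layer of the adipose tissue over the back, taken at slaughter. There were 7 pigs on a standard diet, called control, and 8 on a diet called high-oleic after the monounsaturated oleic acid. Feeding lasted 24 weeks from a live weight of 28 kg towards 110 kg, with 3130 kcal of crude energy per kg of control feed and 3360 kcal per kg of high-oleic feed, and rations were set so that energy and protein intake matched between diets. Each pig gave 1 Affymetrix array and was its own replicate. Neither the hour of slaughter nor the time since the last feed is given in the sources used here.

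The circadian clock is a feedback loop of transcription factors that runs in almost every cell, fat cells included. ARNTL, also called BMAL1, pairs with CLOCK and switches on genes that carry an E-box, among them those of its own repressors, the PER and CRY proteins. BHLHE40, also called DEC1, competes for the same E-boxes, and NFIL3, also called E4BP4, represses genes through D-box elements at which DBP, TEF and HLF activate. ARNTL therefore stands for the positive arm of the loop and CRY2, BHLHE40 and NFIL3 for repressors. In adipose tissue this machinery is known for daily rhythms in lipid storage and release. BHLHE40 and NFIL3 are also known to respond quickly to signals outside the clock, such as low oxygen for the former and immune signals for the latter.

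Values are log2 signals, so a difference of 1 is a doubling, and levels are compared only between pigs for the same probe set. The median of an array was 6.39 to 6.67, and precision is limited by how many arrays there were. The table held only probe sets with 3 or more arrays at least 1.5-fold from the probe set's own median. Of 30 genes listed for the clock, 5 were present, the fifth being CSNK1D, the casein kinase that marks PER proteins for degradation. The adipocyte markers LEP, PNPLA2 and FASN had a mean log2 level of 9.25 to 10.40 in the control pigs and 9.55 to 10.67 in the high-oleic pigs. The 10 skeletal muscle markers present ranged more widely, with mean levels of 2.99 to 8.22 and 3.50 to 7.67.

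ARNTL, the activator, had a signal of 8.49, 5.76, 5.91, 6.55, 7.72, 7.30 and 6.83 in control pigs 1 to 7. In high-oleic pigs 1 to 8 it was 6.56, 7.22, 6.84, 6.76, 6.95, 6.99, 6.88 and 6.66. Among the control pigs, 3 stood above the highest high-oleic pig, 3 stood below the lowest, control pig 4 only narrowly, and 1 lay inside their range. From the lowest to the highest pig the signal differed 6.64-fold.

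CRY2, the repressor that acts with the PER proteins on CLOCK and ARNTL, ran from 6.85 through a median of 7.38 to 8.04 in the control pigs. In the high-oleic pigs it ran from 6.64 through 7.56 to 8.16. The groups overlapped over almost their whole range, and the lowest and highest pigs, high-oleic pigs 2 and 8, were on the same diet. The span was 2.85-fold over the 15 pigs.

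BHLHE40, the E-box competitor, was 6.58, 8.44, 5.96, 7.80, 8.49, 7.93 and 8.15 in control pigs 1 to 7. It was 6.39, 7.34, 7.06, 7.27, 7.06, 7.04, 6.34 and 8.22 in high-oleic pigs 1 to 8. Of the control pigs, 5 lay above every high-oleic pig but pig 8, while control pigs 1 and 3 lay at the low end. The span was 5.74-fold, and the SD of 0.81 over all pigs was larger than that of 85.1% of the probe sets.

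NFIL3, the D-box repressor, ran from 8.27 through a median of 9.29 to 9.59 in the control pigs. It ran from 8.38 through 8.78 to 9.45 in the high-oleic pigs. Control pig 3 was the lowest of all 15 and control pig 5 the highest, as for BHLHE40. Its span of 2.49-fold was the narrowest of the 4 genes, and 11.6% of probe sets had a smaller SD.

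**Figure D1:**
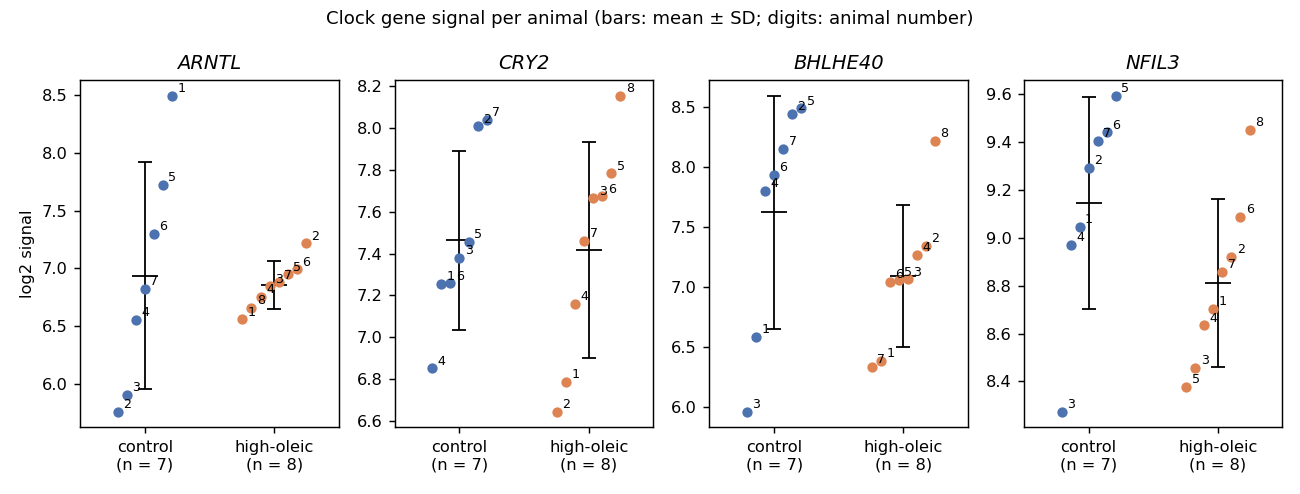
Log2 signal of ARNTL, CRY2, BHLHE40 and NFIL3 in each pig (points, numbered by animal; each panel has its own axis) on the control (n = 7) and high-oleic (n = 8) diet, with bars for mean ± SD. For ARNTL the high-oleic pigs sit between 6.56 and 7.22 while the control pigs spread from 5.76 to 8.49; for the other genes the groups overlap broadly.

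None of the 4 genes passed the test between diets, all 4 having a slightly to moderately lower mean in the high-oleic pigs. For ARNTL the high-oleic mean was 6.86 ± 0.20 (SD, n = 8) and the control mean 6.94 ± 0.98 (SD, n = 7), which gives -0.08 with a 95% interval of -0.77 to 0.61. CRY2 stood at 7.42 ± 0.52 and 7.46 ± 0.43, a difference of -0.05 with an interval of -0.60 to 0.51. A change of 2-fold in either direction lay outside both intervals. These intervals use 1 variance for both diets, although the SD of ARNTL was 0.20 on 1 diet and 0.98 on the other.

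BHLHE40 showed the largest difference of the 4, at 7.09 ± 0.59 in the high-oleic against 7.62 ± 0.97 in the control pigs. The difference was -0.53 (SE 0.37), with an interval of -1.30 to 0.24 that still held a 2-fold lower level. NFIL3 stood at 8.81 ± 0.35 and 9.15 ± 0.44, a difference of -0.33 (SE 0.24) with an interval of -0.84 to 0.17. In limma with Benjamini-Hochberg adjustment over the 3255 probe sets, the adjusted p was 0.999 for each of the 4 genes, and the unadjusted p was 0.81 for ARNTL, 0.86 for CRY2, 0.166 for BHLHE40 and 0.182 for NFIL3.

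Past the adjusted threshold of 0.05 were 0 of the 4 genes and 0.0% of all probe sets, and at an unadjusted p under 0.05 were 0 of the 4 genes and 3.93% of all probe sets (128 of 3255). The median difference of the 4 was -0.21 and that of all probe sets -0.03. CSNK1D, the remaining clock gene present, was measured by 2 probe sets that differed by 0.28 (interval -0.24 to 0.80) and 0.17 between diets, neither past the threshold in limma.

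Mean live weight was 117.2 ± 7.32 kg (range 112 to 133) in the control pigs and 109.2 ± 3.52 kg (range 104.5 to 116) in the high-oleic pigs. With weight as a covariate, the difference for ARNTL turned to 0.26 and that for BHLHE40 shrank to -0.24. Per 10 kg at fixed diet, the slope was 0.42 for ARNTL (interval -0.23 to 1.07), 0.36 for BHLHE40, 0.19 for NFIL3 and 0.02 for CRY2, with adjusted p-values in limma of 0.916 or more. Of all probe sets, 3.81% reached an unadjusted p under 0.05 for this slope, and none of the 4 genes did. Without control pig 5, the heaviest at 133 kg, the slope was 0.25 for ARNTL, -0.09 for BHLHE40 and -0.06 for NFIL3. Without control pig 1, which had the highest ARNTL signal, the slope of ARNTL was 0.68 (interval 0.18 to 1.17; limma unadjusted p = 0.0101, adjusted 0.988).

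The spread of ARNTL is given as a description, with no test. Its SD was 0.98 among the control pigs and 0.20 among the high-oleic pigs. The table holds only probe sets with at least 3 arrays 1.5-fold or more from the median, and for ARNTL these were 4 control pigs and 0 high-oleic pigs, whose largest deviation was 0.37. ARNTL was thus present through the control pigs alone, which ties its wider control spread to that condition. CRY2 had 1 control and 3 high-oleic pigs that far from its median, BHLHE40 6 and 3, and NFIL3 2 and 1.

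Whether the positive and the negative arm moved in opposite directions was asked pair by pair over the 15 pigs, with 6 pairs in all. No pair of ARNTL with a repressor passed the test. With CRY2 it had a Pearson r of -0.22 (95% interval -0.66 to 0.33) and a Spearman rho of -0.14, with permutation p = 0.446, or 0.536 after adjustment over the 6 pairs. With BHLHE40, r was -0.0018 (interval -0.51 to 0.51; rho 0.02; permutation p = 0.995). With NFIL3, r was positive at 0.29 (interval -0.26 to 0.70; rho 0.29; permutation p = 0.295, adjusted 0.467).

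Control pigs 1 and 2 weighed heavily on these values. Control pig 1 had the highest ARNTL signal with a low BHLHE40 signal of 6.58, and control pig 2 had the lowest ARNTL signal with a BHLHE40 signal of 8.44. Without these 2 pigs, which lay farthest from the ARNTL median, r was 0.60 with BHLHE40 (permutation p = 0.0272) and 0.60 with NFIL3 (permutation p = 0.0277). The adjusted p was 0.0555 for both, over 6 pairs that each left out the 2 pigs farthest from the median of the first gene. With CRY2, r without control pigs 1 and 2 was 0.0032. Within the diets, ARNTL and CRY2 gave r of -0.31 in the control pigs and -0.20 in the high-oleic pigs, ARNTL and BHLHE40 -0.04 and 0.04, and ARNTL and NFIL3 0.41 and -0.07.

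Among the repressors, BHLHE40 and NFIL3 moved together. Pigs high in one were high in the other: control pigs 5, 2, 7 and 6 and high-oleic pig 8 held the top 5 places for both genes, and control pig 3 the last place. Pearson's r was 0.78 (interval 0.44 to 0.92; Spearman rho 0.75), with permutation p = 0.00069, adjusted to 0.00414 over the 6 pairs. Leaving out each pig in turn kept r between 0.72 and 0.82. By diet, r was 0.87 in the 7 control pigs (exact permutation p = 0.0119) and 0.53 in the 8 high-oleic pigs (exact permutation p = 0.173). The 2 correlations differed by -0.34, with an exact permutation p of 0.290.

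Of 3254 other probe sets, NFIL3 ranked 9th by its r with BHLHE40, so that 0.277% had an r at least as high, and BHLHE40 ranked 2nd by its r with NFIL3. Without the 2 pigs farthest from the BHLHE40 median, r was 0.66 over 13 pigs (permutation p = 0.0171, adjusted 0.0555), and the call was not kept. The other pairs in that adjustment left out the 2 pigs farthest from the median of their own first gene. The signal of bacterial transcripts added to each RNA, a technical measure, ran from 5.19 to 6.12 in the control pigs and from 5.25 to 7.29 in the high-oleic pigs. With diet and this signal removed, r was also 0.66 (permutation p = 0.0094, adjusted 0.0565). That permutation took the residuals as 15 independent values and did not count the terms removed, so its p can be too small. Without control pigs 1, 2 and 5 and high-oleic pigs 2, 7 and 8, which stood apart in other gene lists, r was 0.78 over 9 pigs (exact permutation p = 0.0132, adjusted 0.0791). The remaining pairs had r of 0.38 (CRY2 and BHLHE40, permutation p = 0.162) and 0.28 (CRY2 and NFIL3, permutation p = 0.312), both with an adjusted p of 0.467.

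**Figure D2:**
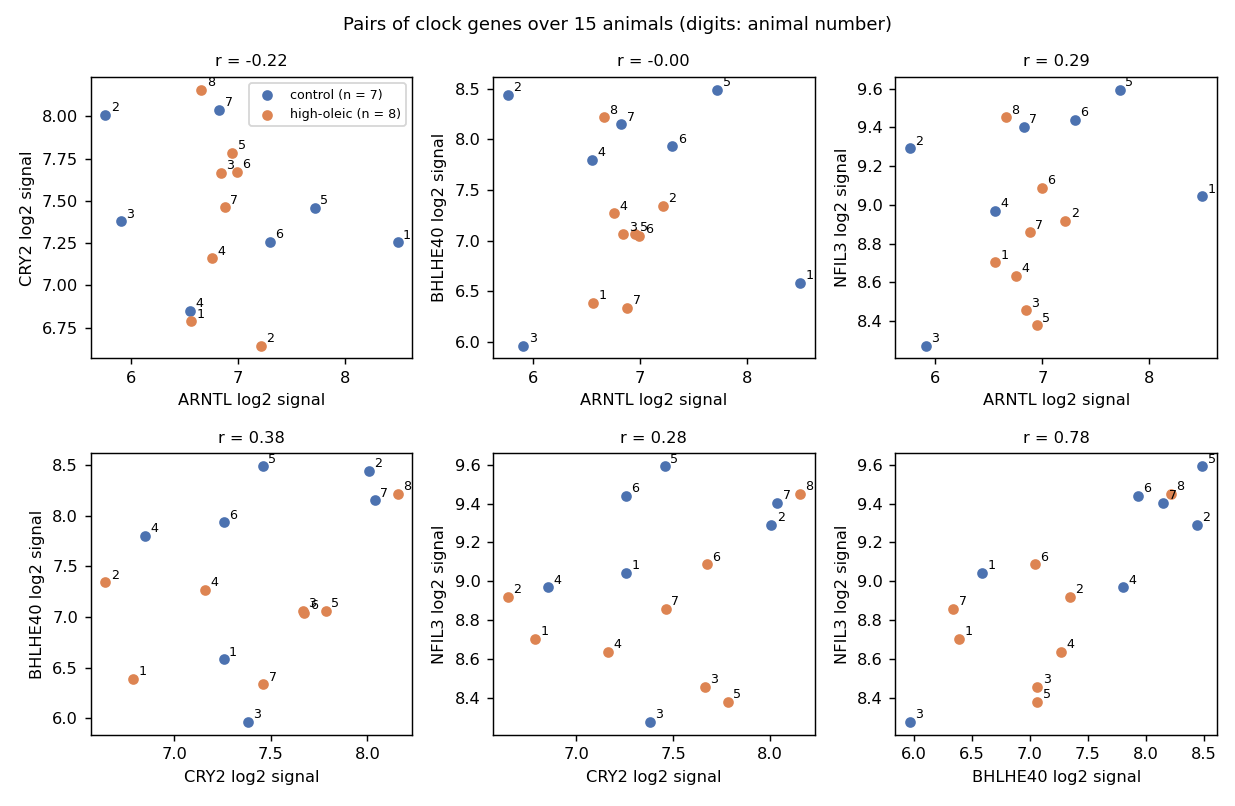
Log2 signals of each of the 6 pairs of clock genes, 1 point per pig (control, n = 7; high-oleic, n = 8; digits give the animal number), with Pearson's r over the 15 pigs above each panel. BHLHE40 and NFIL3 line up with r = 0.78, whereas ARNTL shows no slope against BHLHE40, with control pigs 1 and 2 at opposite corners.

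**Figure D3:**
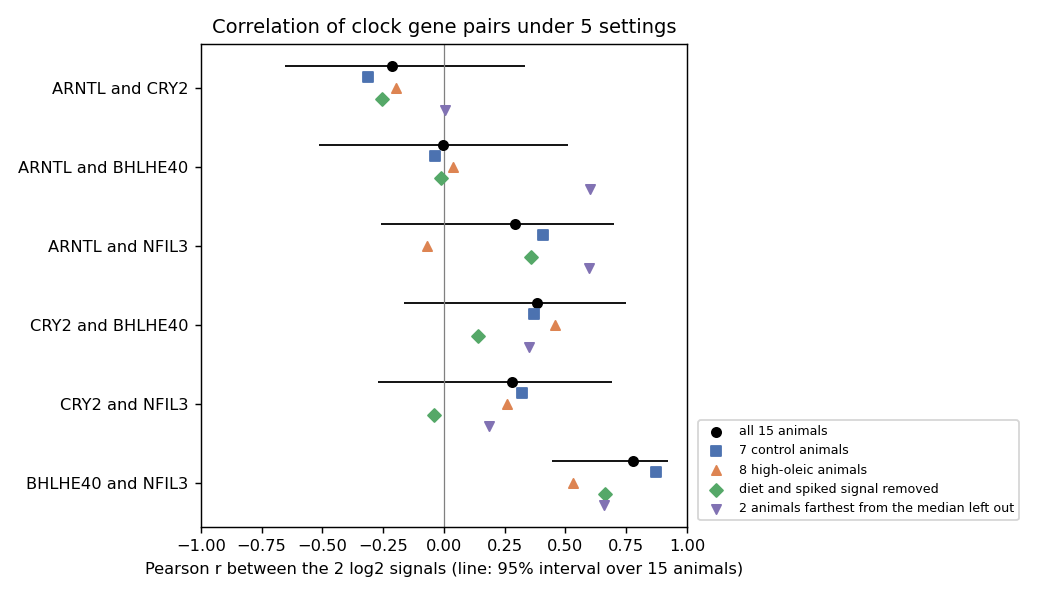
Pearson's r for the 6 pairs over all 15 pigs (black, line: 95% interval), in the 7 control and 8 high-oleic pigs, with diet and spiked signal removed, and without the 2 pigs farthest from the median of the first gene named. The r of BHLHE40 and NFIL3 stays between 0.53 and 0.87, and that of ARNTL and BHLHE40 changes from -0.0018 to 0.60 without those 2 pigs.

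The whole table was then fitted on each gene in turn, with diet as a term, to see which other probe sets followed it. BHLHE40 was followed by 3 probe sets past the adjusted threshold in limma, 0.0922% of 3254, and ARNTL, CRY2 and NFIL3 by 0.0% each. At an unadjusted p under 0.05, the shares were 5.35% for ARNTL, 12.6% for CRY2, 9.04% for BHLHE40 and 14.8% for NFIL3. With the spiked signal as a covariate, these shares were 7.25% for ARNTL, 5.35% for CRY2, 3.07% for BHLHE40 and 5.26% for NFIL3. The numbers past the threshold hung on single pigs. Without control pig 3, 1 probe set followed ARNTL, 1 followed BHLHE40 and 14 followed NFIL3. Without control pig 2, 5 followed CRY2, and 1 followed ARNTL without control pig 5 and NFIL3 without high-oleic pig 5. In the fits over all pigs, which adjust over the whole table, neither repressor passed on the other: the slope of NFIL3 on BHLHE40 was 0.37 (limma adjusted p = 0.481) and that of BHLHE40 on NFIL3 was 1.49 (limma adjusted p = 0.185).

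Both probe sets of TF, which encodes the iron carrier transferrin, rose with BHLHE40. In control pigs 1 to 7 the first had signals of 5.59, 8.36, 5.71, 8.08, 8.53, 7.93 and 8.26, and in high-oleic pigs 1 to 8 it had 5.85, 6.97, 7.71, 7.33, 8.13, 7.85, 6.50 and 8.31. On this probe set the 4 lowest pigs, control pigs 1 and 3 and high-oleic pigs 1 and 7, were also the 4 lowest for BHLHE40. Its r was 0.87, and its log2 signal rose by 1.21 (SE 0.18) per log2 unit of BHLHE40 (limma adjusted p = 0.00317). The other probe set had its lowest signals in control pigs 3 (3.44) and 1 (4.23) and in high-oleic pig 3 (4.25), which was in the middle for BHLHE40 at 7.06. It had r = 0.79 and a slope of 1.69 (SE 0.28; limma adjusted p = 0.00666). Both calls were lost in limma with the spiked signal as a covariate (adjusted p = 0.0561 and 0.183) and without control pig 3 (adjusted p = 0.0502 and 0.116), with slopes that stayed positive.

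The third probe set carries no gene name in the annotation used. It tracked BHLHE40 almost exactly, with r = 0.99 and a slope of 1.02 (SE 0.13; limma adjusted p = 3.4e-04). It ranged from 7.84 to 10.59 in the control pigs and from 8.40 to 10.29 in the high-oleic pigs. Whether it measures BHLHE40 itself was not determined here, so TF is the single other gene known among the 3 probe sets.

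Genes whose pattern was most like that of each clock gene were taken by Pearson's r over the 15 pigs, 4 in each direction. In bulk tissue, fewer cells of a type and less RNA per cell cannot be told apart. For BHLHE40 the closest after TF were NFIL3, TIFA (r = 0.77), an adaptor of NF-kappa-B signalling, and GADD45G (r = 0.76), a stress-inducible growth arrest gene. In the opposite direction stood PDK4 (r = -0.72 on the dimmer of its 2 probe sets), the kinase that shuts off pyruvate oxidation in fasting, CTBP2 (-0.72), a transcriptional corepressor, ANGEL2 (-0.72) and POSTN (-0.71), a matrix protein.

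PDK4 had a negative r with BHLHE40 on both of its probe sets. On the dimmer one it ranged from 6.30 through a median of 9.82 to 11.57 in the control pigs and from 9.55 through 10.72 to 11.39 in the high-oleic pigs. Control pig 5 had the lowest PDK4 and the highest BHLHE40 signal of all. Within the diets r was -0.67 and -0.80, and r on the brighter probe set was -0.70 over all pigs. The slope of the dimmer one on BHLHE40 did not pass the adjustment in limma (adjusted p = 0.345), nor did the slope of any of the other genes named for BHLHE40 apart from TF.

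For NFIL3 the closest were BHLHE40, CCL2 (r = 0.77), a chemokine that draws monocytes, PPP1R3B (0.73), a subunit that directs a phosphatase to glycogen, and PMAIP1 (0.72), a promoter of cell death. Opposite were SLC3A2 (-0.73), a subunit of amino acid transporters, CTBP2 (-0.68), SH3BGRL2 (-0.67) and SLC1A1 (-0.66), a glutamate transporter. CTBP2 was thus among the 4 most opposed genes for both repressors. SLC1A1 was dim, with every signal well below the array medians of 6.39 to 6.67, where the lowest signal of all was 1.49. Pigs 3 and 4 of both diets stood apart for SLC1A1, at 4.09 to 4.44 against 2.22 to 2.92 in the other 11 pigs, and for SLC3A2, at 7.59 to 8.00 against 6.21 to 7.16. What the animal numbers stand for is not given in the sources used here, and the part of this pattern in the r with NFIL3 was not tested. None of these slopes on NFIL3 passed in limma, the adjusted p-values lying between 0.185 and 0.396.

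For CRY2, PHGDH (r = 0.83), which opens serine synthesis, and NDUFA1 (r = 0.82), a subunit of respiratory complex I, came closest, both with a limma adjusted p of 0.0740. STAT5A and CAMK2G followed with r of 0.79 each. On the opposite side were NSUN3 (-0.82), which modifies a mitochondrial transfer RNA, FKBP5 (-0.80), CMTR2 (-0.79), which modifies the messenger RNA cap, and FPGT (-0.75).

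FKBP5, a cochaperone of the glucocorticoid receptor and a textbook target of it, ran from 10.30 through a median of 11.10 to 11.63 in the control pigs. In the high-oleic pigs it ran from 10.31 through 11.12 to 11.64. The 2 pigs with the lowest FKBP5, control pig 2 and high-oleic pig 8, were among the 3 highest for CRY2. Its r with CRY2 was -0.87 in the control pigs and -0.77 in the high-oleic pigs, and -0.85 to -0.75 when each pig was left out in turn, but its slope did not pass in limma (adjusted p = 0.360). The list of glucocorticoid targets did not share this direction. Of the 6 present, 3 had a positive and 3 a negative r with CRY2, with a median of -0.06. Among all probe sets, 59.3% had a positive r with CRY2.

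**Figure D4:**
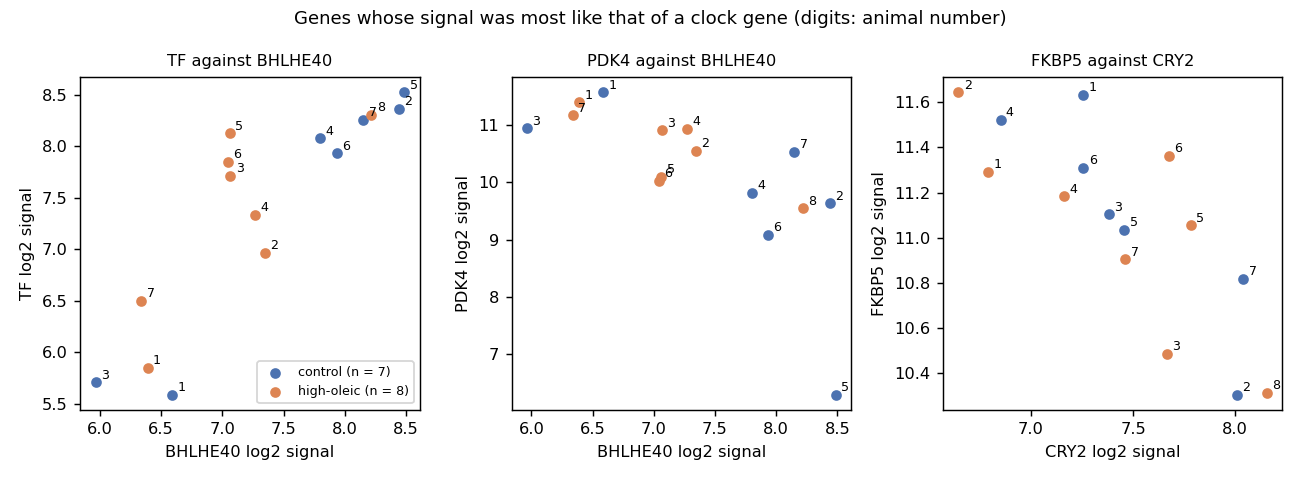
Log2 signals of TF and PDK4 against BHLHE40 and of FKBP5 against CRY2, 1 point per pig (control, n = 7; high-oleic, n = 8; digits give the animal number). TF climbs with BHLHE40 (r = 0.87), while r is -0.72 for PDK4 (dimmer probe set) and -0.80 for FKBP5; of the 3, TF alone passed the adjusted threshold at fixed diet.

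For ARNTL the closest genes were GATA6 (r = 0.76), a transcription factor, C2H19orf66 (0.74), ITIH4 (0.73) and OAS1 (0.73), an interferon-induced antiviral enzyme. The most opposed were ERAL1 (-0.72), CTNNBIP1 (-0.63), an inhibitor of beta-catenin, B2M (-0.62), the light chain of class I antigen presentation, and PLLP (-0.62). Limma gave adjusted p-values of 0.467 to 0.856 for these slopes. With a single pig left out, r of GATA6 fell as low as 0.54 and that of CTNNBIP1 came as close to 0 as -0.28.

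Interferon-response genes, 11 of 12 listed being present, were high in control pig 1 and high-oleic pig 2, the first and the fourth highest pigs for ARNTL. The mean level of the list ran from 7.87 to 12.01 in the control pigs and from 8.20 to 11.71 in the high-oleic pigs. Its r with ARNTL was 0.52 (permutation p = 0.0483, adjusted 0.311 over 52 relations computed with such measures). Without control pig 1 and high-oleic pig 2, the 2 pigs farthest from the median of the list score, r was -0.19. Smooth muscle and pericyte markers, 9 of 10 listed being present, had r = 0.56 with ARNTL (permutation p = 0.0347, adjusted 0.300). Without control pigs 1 and 6, the 2 farthest from the median of this list score, r was also -0.19. The mean level of these markers ran from 8.37 to 10.10 in the control and from 8.41 to 8.95 in the high-oleic pigs. The part of either list in the ARNTL pattern was not tested.

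Immediate early and heat shock genes, known to respond within minutes to many stimuli, had the highest r with BHLHE40 of the lists scored. Of 14 listed, 5 were present, namely EGR1, ATF3, IER2, IER3 and HSP70.2, and all 5 had a positive r with BHLHE40, as did 56.6% of all probe sets. The r was 0.75 for IER3 and 0.64 for IER2, and 0.18 for EGR1, 0.17 for ATF3 and 0.05 for HSP70.2, against a median of 0.06 over all probe sets. On the dimmer probe sets of EGR1 and HSP70.2, r was 0.36 and 0.08. The score of the list, the mean deviation of its genes from their means, had r = 0.78 with BHLHE40 (rho 0.76; permutation p = 0.00099, adjusted 0.0515), with 0.77 in the control and 0.80 in the high-oleic pigs. With NFIL3, r was 0.66 (permutation p = 0.00832, adjusted 0.216). The mean level of the list was 9.30 to 10.15 in the control and 9.25 to 10.27 in the high-oleic pigs, and its part in the pattern of BHLHE40 and NFIL3 was not tested.

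IER3, the member closest to BHLHE40, ran from 6.27 through 7.24 to 8.91 in the control pigs and from 5.04 through 6.48 to 8.05 in the high-oleic pigs. Its slope on BHLHE40 gave a limma adjusted p of 0.345. IER3 also had r = 0.67 with CRY2 (limma adjusted p of the slope 0.305) and 0.57 with NFIL3, and -0.18 with ARNTL. Between diets, on the brightest probe set of each gene, 4 of the 5 genes of this list were lower in the high-oleic pigs. Of the 5, 0 were past the threshold and 1 was at an unadjusted p under 0.05. That gene was IER3, with a mean of 6.45 in the high-oleic and 7.45 in the control pigs (95% interval of the difference -1.88 to -0.13; limma adjusted p = 0.999). On its dimmer probe set, EGR1 also differed, by -0.59 (95% interval -1.16 to -0.02; limma unadjusted p = 0.0429, adjusted 0.999). GADD45B, a stress-inducible gene listed as a glucocorticoid target, had r of 0.65 and 0.69 with BHLHE40 and with NFIL3 0.69 and 0.67 on its 2 probe sets. It ran against most of its list. Of the 6 glucocorticoid targets present, 1 had a positive and 5 a negative r with BHLHE40. With NFIL3, 2 had a positive and 4 a negative r. Among all probe sets, 56.6% had a positive r with BHLHE40 and 61.0% with NFIL3.

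Between diets, the glucocorticoid targets present, 6 of 18 listed, were higher for 2 and lower for 4 with 0 past the threshold in limma and 0 at an unadjusted p under 0.05. High-oleic minus control, the difference was 0.81 for PDK4 on its brighter probe set, 0.45 for ANGPTL4 on its brighter one, an inhibitor of lipoprotein lipase, -0.29 for NR3C1, the receptor itself, and -0.18 for MT1A, a metallothionein. MT1A was dim, at 2.05 to 3.14 in the control and 2.31 to 2.87 in the high-oleic pigs. Of the hypoxia targets, 4 of 20 were present, BHLHE40 among them, with 1 higher, 3 lower and 0 past the threshold. SLC2A1, the glucose transporter GLUT1, differed by 0.35 and ANKRD37 by -0.22. ALAS1, which opens haem synthesis and was the single gene present of 19 clock outputs listed, differed by 0.12 and had r = 0.54 with NFIL3.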

How the data were processed

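The authors deposited 1 table of log2 signals per probe set for 15 arrays. The submitters' processing notes name GCOS and GCRMA, whose versions were not given in the sources used here, nor how they were set. Of 3272 probe sets, 17 control probe sets were left out of tests, and 7 of these, for spiked bacterial transcripts, gave the spiked signal. Of the rest, 1455 had 1 gene symbol in the platform annotation, 27 several and 1773 none. The members and gene lists were chosen with earlier results of these data known. Diet effects, slopes on live weight and slopes on each clock gene at fixed diet were fitted with limma 3.58.1 in R 4.3.3 over all probe sets, two-sided, and Benjamini-Hochberg adjusted p-values under 0.05 were called. Correlations used 100000 permutations over 15 pigs and all orders within a diet; their intervals are Fisher's. Genes were named as the members, the measured clock genes, the 4 per direction with the most extreme r for each member (on the probe set with the most extreme r), and up to 4 examples of other lists by smallest p between diets. Genes past a threshold, FKBP5, PDK4, IER3, GADD45B and the lists beside them were picked for fuller description after their values were seen. Elsewhere a gene with several probe sets is represented by the brightest unless stated. The scripts were tested on simulated data. Alternatives were quantile normalization, median centring, a filter on dim probe sets, covariates, array weights, other variance models, exact tests, a replicate block and leaving out pigs. Animal numbers name different pigs in each diet and did not meet the bar set for pairing, a correlation over 0.1 in every pair of same-numbered pigs.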

Additional observations from a re-analysis of the deposited data

Results flagged for a closer look

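PDK4 on its brighter probe set was at 7.95 in control pig 5, far below the other control pigs, whose median was 11.45. The same pig had the highest BHLHE40 and NFIL3 signals of all. The r of this probe set with BHLHE40 was -0.70 and lay between -0.75 and -0.68 when each pig was left out in turn. CSNK1D on its brighter probe set was at 4.69 in control pig 2, where the remaining control pigs had a median of 5.68, and this pig also had the lowest ARNTL signal. Of 24 groups of pigs checked for a single value far from the rest, these 2 were found, where chance gives 1.2 (1 in 20).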

How the results depend on the processing

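Of 539 alternative values, 486 kept their direction and their side of the threshold, or stayed close to the value reported, 8 were no longer past it, 10 moved and 35 changed sign. The cause of these changes was not tested. Between diets, 1 probe set passed with the spiked signal as a covariate and 0 under the other alternatives. The difference of ARNTL became 0.26 with live weight as a covariate, 0.052 with array weights and 0.17 without control pigs 1, 2 and 5 and high-oleic pigs 2, 7 and 8, which stood apart in other gene lists; leaving out each pig gave -0.28 to 0.18. For CRY2 it was 0.032 without those 6 pigs and -0.15 to 0.063 without each pig, and for CSNK1D -0.10 and -0.016 without the 6 pigs and -0.038 on the dimmer probe set with live weight. BHLHE40 and NFIL3 stayed lower on the high-oleic diet under every alternative run, by -0.81 to -0.24 and -0.48 to -0.18, and never passed the threshold. Without the 6 pigs, r was 0.29 for ARNTL and CRY2, 0.67 for ARNTL and BHLHE40 and 0.78 for BHLHE40 and NFIL3, the last with permutation p = 0.0132, adjusted to 0.0791. Without the 2 pigs farthest from the median, these were 0.0032, 0.60 and 0.66. Spearman's rho of ARNTL and BHLHE40 was 0.018, and leaving out each pig gave r of -0.24 to 0.24. With diet and spiked signal removed, r was -0.040 for CRY2 and NFIL3 and 0.66 for BHLHE40 and NFIL3.

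Probe sets that followed ARNTL numbered 5 with live weight as a covariate and 0 to 1 without each pig. For CRY2 they numbered 0 to 5 without each pig. For BHLHE40 they numbered 1 with the spiked signal and 1 to 4 without each pig. For NFIL3 they numbered 2 with the spiked signal and 0 to 14 without each pig. The TF slopes that lost their call were 1.07 and 1.33 with the spiked signal and 1.30 and 1.64 without control pig 3. The slope of CRY2 on live weight per 10 kg was -0.014 after quantile normalization and -0.041 after median centring, and -0.070 to 0.11 without each pig, where ARNTL gave 0.25 to 0.68, BHLHE40 -0.087 to 0.58 and NFIL3 -0.055 to 0.24.

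Same-numbered pigs of the 2 diets deviated together with correlations of -0.16 to 0.30 over 7 numbers, 4 of them at 0.26 to 0.30, and the best match was the same number in 2 of 7. Not every number paired, but some structure was shared: the spiked signal of same-numbered pigs had r = 0.79 (rho 0.71; exact permutation p = 0.0514, adjusted 0.257 over 5 relations; 0.67 without the 2 numbers farthest from the median), and the clock genes -0.60 to 0.40. With the number as a replicate block, limma placed 0 probe sets past the threshold (194 at an unadjusted p under 0.05), and the difference of BHLHE40 was -0.69. Alternatives added after seeing the data correlated the differences between same-numbered pigs, a replicate block over 7 numbers: r was 0.11 for ARNTL and BHLHE40, -0.041 for CRY2 and NFIL3, and 0.77 for BHLHE40 and NFIL3 (exact permutation p = 0.0704, adjusted 0.423). Without pigs 3 and 4 of both diets, r of BHLHE40 and NFIL3 was 0.78 (permutation p = 0.00518, adjusted 0.0311). Trying other probe sets gave no value, since each of the 4 genes had 1, and the filter on dim probe sets removed the dimmer one of CSNK1D.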

Other observations

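Erythroid markers, 3 of 5 listed being present, gave the strongest inverse relation of ARNTL with a cell type list. The list score had r = -0.60 with ARNTL (rho -0.48; permutation p = 0.0154, adjusted 0.267 over 52 relations), -0.93 in the control pigs and -0.59 in the high-oleic pigs. Without high-oleic pigs 7 and 8, the 2 farthest from the median of this score, r was -0.71. The mean level of these markers ran from 4.72 to 6.10 in the control pigs and from 4.84 to 6.97 in the high-oleic pigs.

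CRY2 had r = 0.55 with the spiked signal (permutation p = 0.0301, adjusted 0.300), at 0.07 in the control pigs and 0.80 in the high-oleic pigs. Its r with FKBP5 was -0.81 with diet and the spiked signal removed.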
